A study of Saccharomyces cerevisiae with 8 samples.

Results

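The mitochondrial ribosomal protein genes described here are the nuclear genes of budding yeast whose names in the authors' tables consist of MRPL, MRPS or RSM and a number. The rule found 52 genes among 6696 gene regions, 32 named MRPL, 9 named MRPS and 11 named RSM, so that 32 encode proteins of the large subunit and 20 proteins of the small subunit. They were set beside 130 cytosolic ribosomal protein genes named RPL or RPS. RNA-seq was done on total RNA of Saccharomyces cerevisiae W303 in 4 groups of 2 biological replicates, wild type (WT) and grr1-deficient, each at 0 h and at 4 h of tunicamycin at 1 µg/ml. All cultures grew at 30 °C in SC medium with 2% glucose. Grr1 is an F-box subunit of an SCF ubiquitin ligase, and tunicamycin blocks N-glycosylation and so loads the endoplasmic reticulum with unfolded protein. The labels do not say how GRR1 was inactivated or whether the grr1-deficient cultures came from 1 clone. Drug-free cultures of 4 h were not analysed here, and the drug and growth time cannot be told apart. All levels are shares of the RNA of a culture, so less of an mRNA per cell and more of the other RNA cannot be told apart either. The p-values measure only the spread between these replicates. That spread was estimated in a single fit of all 8 libraries and shared in part across genes. Calls in WT therefore also rest on the spread between the grr1-deficient replicates.

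Mitochondrial ribosomes translate the few mRNAs of the mitochondrial genome, which in yeast encode core subunits of cytochrome c oxidase, the cytochrome bc1 complex and ATP synthase. All but one of their proteins, Var1, are encoded in the nucleus, translated in the cytosol and imported. Some of these proteins belong to families shared with bacterial ribosomes, and others are found only in mitochondria. The mRNAs of nuclear mitochondrial ribosomal protein genes are the best known targets of Puf3, an RNA-binding protein that recognises an 8-base element starting with TGTA downstream of the stop codon, and that in yeast has been linked both to mRNA decay and to translation near mitochondria. Cytosolic ribosomal protein genes are driven by other factors, among them Rap1, Fhl1, Ifh1 and Sfp1.

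The Puf3 element is shown first because it is the feature that nearly all of these genes shared and that played no part in their choice. The motif TGTANATA, searched on the gene's own strand in the 200 bases after the stop codon, was found in 51 of 52 genes (98.1%), in all 23 genes for mitochondrial ribosomal proteins with other names, in 826 of 5648 genes tested (14.6%) and in 5 of 130 cytosolic ribosomal protein genes (3.85%). RSM22 was the gene without a match. Sites of 6 genes, those with the largest change in WT among genes with a match, are printed below with 8 bases on either side, from the R64 genome of RefSeq, 5′ to 3′ on the gene's strand, and capitals mark the motif. They lie at chrXII:1015470-1015493 (plus strand) for MRPL4, chrX:619114-619137 (plus) for RSM26, chrII:741641-741664 (plus) for MRPL37, chrXII:760294-760317 (plus) for MRPL15, chrX:315717-315740 (minus) for MRPL8 and chrVIII:392538-392561 (minus) for MRPL6.
MRPL4: ctctctccTGTAAATAtatatata
RSM26: ttatatacTGTAAATAgttttatt
MRPL37: ggtatcctTGTAAATAaatatgtg
MRPL15: aatttatcTGTAAATAgtgatcga
MRPL8: tattccctTGTAAATAtatagatg
MRPL6: gaatacctTGTAAATAtcctatga
All 6 sites have A at the variable base of the motif, which was A in 23 of the 51 genes with a match, T in 16, C in 11 and G in 1, against A in 28.6% and T in 48.9% of the 826 genes with a match. A C stands 2 bases before the motif in the sites of MRPL4, MRPL37, MRPL8 and MRPL6, and it did so in 36 of 51 genes (70.6%) against 240 of 826 (29.1%). On the opposite strand of the same window the motif was in 10 of 52 genes (19.2%) and in 13.6% of all genes. These last comparisons were chosen after the sites had been seen.

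**Figure D1:**
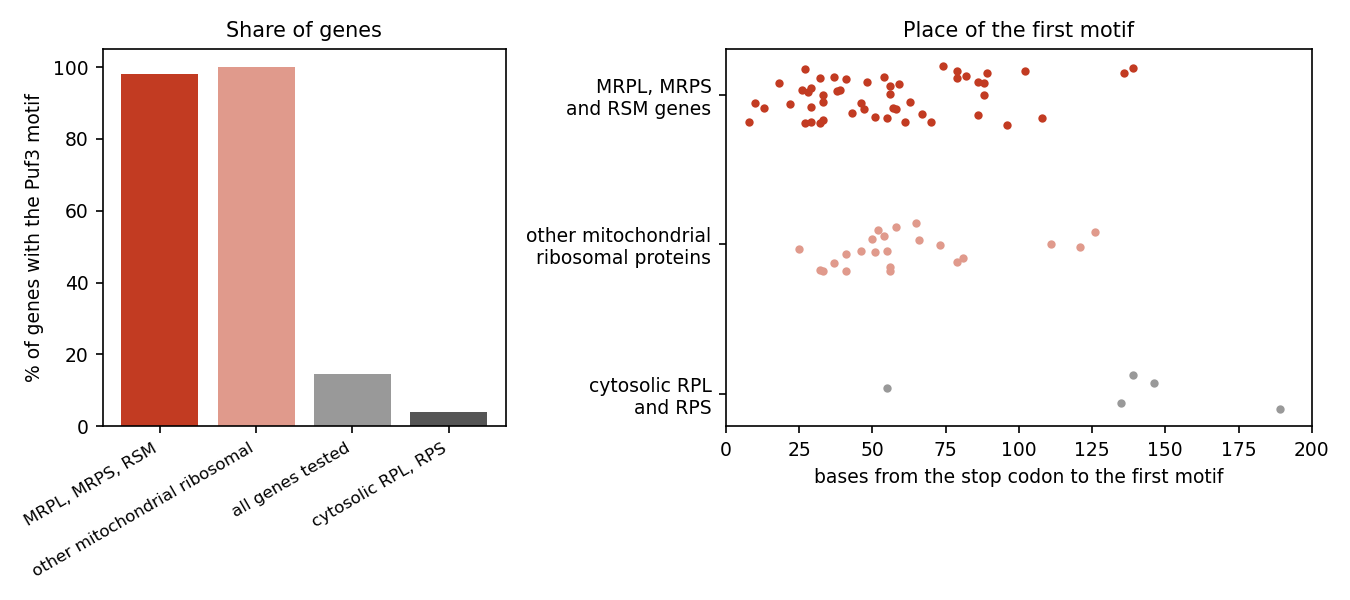
Left, the percentage of genes with TGTANATA on their own strand in the 200 bases after the stop codon, for the 52 MRPL, MRPS and RSM genes, the other mitochondrial ribosomal protein genes, all genes tested and the cytosolic RPL and RPS genes. Right, the distance in bases from the stop codon to the first match, 1 point per gene with a match, for the MRPL, MRPS and RSM genes, the other mitochondrial ribosomal protein genes and the cytosolic genes. The 51 points of the top group lie between 8 and 139 bases.

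A first match lay 51 bases after the stop codon in the median gene, and the range was 8 to 139 bases. There was 1 match in 40 genes, 2 in 10 genes and 3 in RSM19, which encodes the counterpart of bacterial S19. In the 300 bases upstream of the start codon only the strings named here were counted, on both strands. None of them was in nearly all of the 52 genes, and other motifs were not searched for. AATTTT was in 34.6% of the 52 genes and 55.1% of all genes, GATGAG in 19.2% of both, CCAAT in 38.5% and 42.1%, and the Rap1 core CCCATACA in 1.92% and 0.974%. CCCATACA was in 6.15% of the cytosolic genes, and only this exact spelling was counted, so these are not shares of genes with any Rap1 site. A match describes letters in a window and is no evidence of binding.

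Before the results, 3 features of the libraries matter. GRR1 held between 1179 and 1829 reads in the WT libraries and 2, 3, 6 and 12 reads in the grr1-deficient ones, at 0 h and then at 4 h, as the labels say. Gene reads per library numbered 4885844 to 12380049. Replicate 2 of the grr1-deficient strain nearly lacked transcripts of the mitochondrial genome other than Q0092 at both times: leaving out the reading frame Q0092 they made 0.00393% of gene reads at 0 h and 0.000808% at 4 h, against 10.8% and 13.4% in replicate 1 and 1.72% to 5.03% in WT. Q0092 itself held 18668 reads (0.382%) at 0 h and 94706 (0.765%) at 4 h in replicate 2, against 144 and 258 reads in replicate 1. Q0092 is left out wherever mitochondrial transcripts are called missing below. Genes of chromosome XI stood higher in all 4 grr1-deficient libraries: over the 308 genes tested there the median log2 difference from WT was 0.88 and 0.85 in replicates 1 and 2 at 0 h and 0.85 and 0.92 at 4 h. The medians of the 15 other nuclear chromosomes lay between -0.24 and 0.09 at 0 h and between -0.12 and 0.19 at 4 h. DNA copy number was not measured. Of the 52 genes, 5 lie on chromosome XI.

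All 52 genes passed the filter on low counts, with between 30 and 2458 reads per library. A pair of further genes whose RefSeq names match the rule, MRPL19 and MRPL25, have no countable bases and no reads in the files. Summed, the 52 genes took 0.248% and 0.238% of gene reads in WT at 0 h, 0.268% and 0.279% in WT at 4 h, 0.681% and 0.997% in untreated grr1-deficient cells, and 0.227% and 0.310% in treated ones. The untreated grr1-deficient libraries were the highest, and the treated grr1-deficient pair spanned all 4 WT libraries. In WT both treated libraries lay above both untreated ones in this unscaled share, whereas in the TMM-scaled fit below most of the genes were lower at 4 h. The cytosolic genes took 23.9% and 22.6%, then 1.76% and 1.73%, then 13.3% and 13.1%, then 4.54% and 4.75%, in the same order of libraries. These shares rest on raw counts and no scaling. For every 100 reads of cytosolic ribosomal protein genes there were 1.04 and 1.06 reads of the mitochondrial ones in WT at 0 h, 15.2 and 16.1 in WT at 4 h, 5.11 and 7.62 in grr1-deficient cells at 0 h and 5.00 and 6.53 at 4 h. That ratio was lowest in both untreated WT libraries and highest in both treated ones, while in grr1-deficient cells the ranges at 0 h and 4 h overlapped.

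Levels were compared between genes per length, as CPM per kilobase of countable exon with TMM-scaled library sizes. The median of the 52 genes was 72.9 and 65.9 in WT at 0 h, 42.2 and 45.0 in WT at 4 h, 154 and 196 in untreated grr1-deficient cells, and 40.6 and 59.3 in treated ones. The treated libraries of both strains overlapped. The highest mean over 8 libraries was that of MRPL38, the counterpart of bacterial L14, at 255 CPM per kilobase, then MRPS12, the counterpart of the decoding-centre protein S12, at 225, and MRPL20, a protein found only in mitochondrial ribosomes, at 183. The lowest were MRPL4, a counterpart of bacterial L29, at 5.04, RSM22, which encodes a methyltransferase-like protein of the small subunit, at 39.8, and MRPL44, specific to mitochondria, at 48.3. MRPL4 was far below the next gene and had 30 to 88 reads per library, so its values carry the widest counting error.

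**Figure D2:**
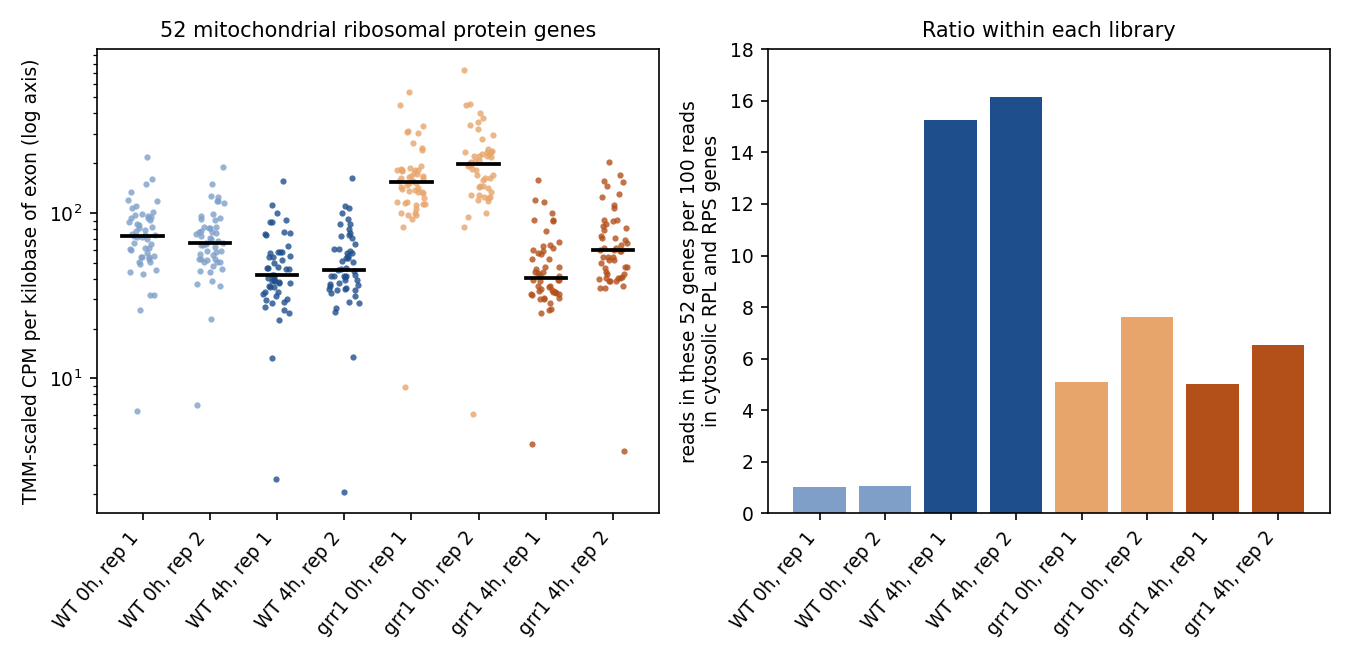
Left, levels of the 52 genes in TMM-scaled CPM per kilobase on a log axis in each of the 8 libraries, 1 point per gene with the median as a bar; the medians are highest in the untreated grr1-deficient libraries, at 154 and 196. Right, reads in the 52 genes per 100 reads in cytosolic RPL and RPS genes, which are 1.04 and 1.06 at 0 h and 15.2 and 16.1 at 4 h in WT and lie between 5.00 and 7.62 in grr1-deficient cells.

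In WT cells, 28 of the 52 genes fell between 0 h and 4 h of tunicamycin and none rose by edgeR's quasi-likelihood test at an adjusted p of 0.05. At an unadjusted p of 0.05 the counts were 34 lower and 0 higher, and DESeq2 called 29 lower and 0 higher. Among all 5855 genes tested 33.1% were called lower and 32.5% higher. The median log2 change was -0.56, with a range of -1.55 to 0.24, against 0.03 over all genes. All 130 cytosolic genes fell in the same test, with a median of -4.60. Both libraries at 4 h lay below both at 0 h for 45 genes and above them for 2, where 43.4% and 45.8% of all genes did so. Calls were fewer without WT 4 h replicate 1, where the median was -0.51 against 0.04 over all genes. Without both grr1-deficient replicate 2 libraries the median was -0.59, against 0.0006 over all genes. With total counts in place of TMM scaling 29 of the 52 genes changed sign, the median was 0.19 and the calls were 2 lower and 9 higher, as the median of all genes moved to 0.78, and the gap between the members' median and that of all genes was -0.59 under both scalings.

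The largest falls in WT were those of MRPL4, RSM26 and MRPL37. RSM26 (YJR101W, R64 chromosome X, 618234 to 619034), a small-subunit protein related to superoxide dismutase, was at 112 and 89.1 CPM at 0 h and 32.8 and 37.5 CPM at 4 h. It fell by 1.52 on the log2 scale (SE 0.21, edgeR adjusted p = 0.000311). MRPL4 (YLR439W, chromosome XII, 1014491 to 1015450) was at 8.34 and 9.15 CPM at 0 h and at 3.26 and 2.7 CPM at 4 h, a log2 change of -1.55 (SE 0.28, edgeR adjusted p = 0.00135). MRPL37 (YBR268W, chromosome II, 741299 to 741616), a mitochondria-specific protein, went from 58.8 and 61.1 CPM to 24.3 and 24.1 CPM, a change of -1.31 (SE 0.27, adjusted p = 0.00302). The groups did not overlap for any of these genes. With total counts the change of MRPL37 was -0.56 and did not pass (edgeR adjusted p = 0.128).

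The other 24 genes did not pass the test in WT. RSM19 (YNR037C, chromosome XIV, 695052 to 695327) measured 46.0 and 39.2 CPM at 0 h and 49.3 and 51.2 CPM at 4 h, a log2 difference of 0.24 (SE 0.32, edgeR adjusted p = 0.533). MRPL16 (YBL038W, chromosome II, 146187 to 146885), the counterpart of bacterial L16, measured 43.5 and 41.8 CPM, then 43.8 and 46.3 CPM. MRPL28 (YDR462W, chromosome IV, 1386073 to 1386516), specific to mitochondria, measured 31.0 and 28.7 CPM, then 29.7 and 32.0 CPM. RSM19 and MRPL16 were the 2 genes whose treated libraries both lay above the untreated ones, and neither passed the test. The large subunit had 21 of 32 genes lower with a median of -0.60, and the small subunit 7 of 20 with a median of -0.46, without a test of that difference. Genes of bacterial families (16 of 32 lower, median -0.54) and mitochondria-specific ones (11 of 19, -0.58) had similar medians.

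In grr1-deficient cells all 52 genes fell between 0 h and 4 h, against 24.5% of all genes called lower and 21.5% higher by edgeR. The median log2 change was -1.72 and the range -2.40 to -0.97, with 0.04 over all genes. Each gene had both treated libraries below both untreated ones, as had 34.1% of all genes tested. The 130 cytosolic genes also all fell, with a median of -1.60, so that here the mitochondrial and cytosolic sets differed by 0.12 between their medians, while in WT they differed by 4.04. The count of called genes was 51 or 52 without any 1 library and 52 without both replicate 2 libraries, where the median was -1.84.

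RSM26 fell most, from 200 and 258 CPM to 35.5 and 50.9 CPM, by 2.40 on the log2 scale (SE 0.22, edgeR adjusted p = 0.000157). MRPL33 (YMR286W, chromosome XIII, 841942 to 842202), the counterpart of bacterial L30, was at 54.0 and 78.0 CPM at 0 h and at 12.8 and 16 CPM at 4 h. MRPL33 fell by 2.19 (SE 0.22, adjusted p = 0.000188). MRPL49 (YJL096W, chromosome X, 246490 to 246975), the counterpart of bacterial L21, went from 107 and 161 CPM to 23.2 and 35.8 CPM, a change of -2.17 (SE 0.25, adjusted p = 0.000353). In all 3 genes both treated libraries lay below both untreated ones. The smallest changes were those of MRPL4 at -0.97, MRPL50, the counterpart of bacterial L9, at -1.03 and RSM19 at -1.16. MRPL4 lost its call without grr1-deficient 0 h replicate 1 (edgeR adjusted p = 0.105) and without 4 h replicate 2 (0.0714), and RSM19 without 0 h replicate 2 (0.076) and without 4 h replicate 1 (0.0704). With only the 4 grr1-deficient libraries in the fit 50 of 52 genes were called, and MRPL4 (0.0816) and RSM19 (0.0675) were the exceptions. MRPL50 was at 106 and 140 CPM at 0 h and at 53.9 and 66.5 CPM at 4 h.

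**Figure D3:**
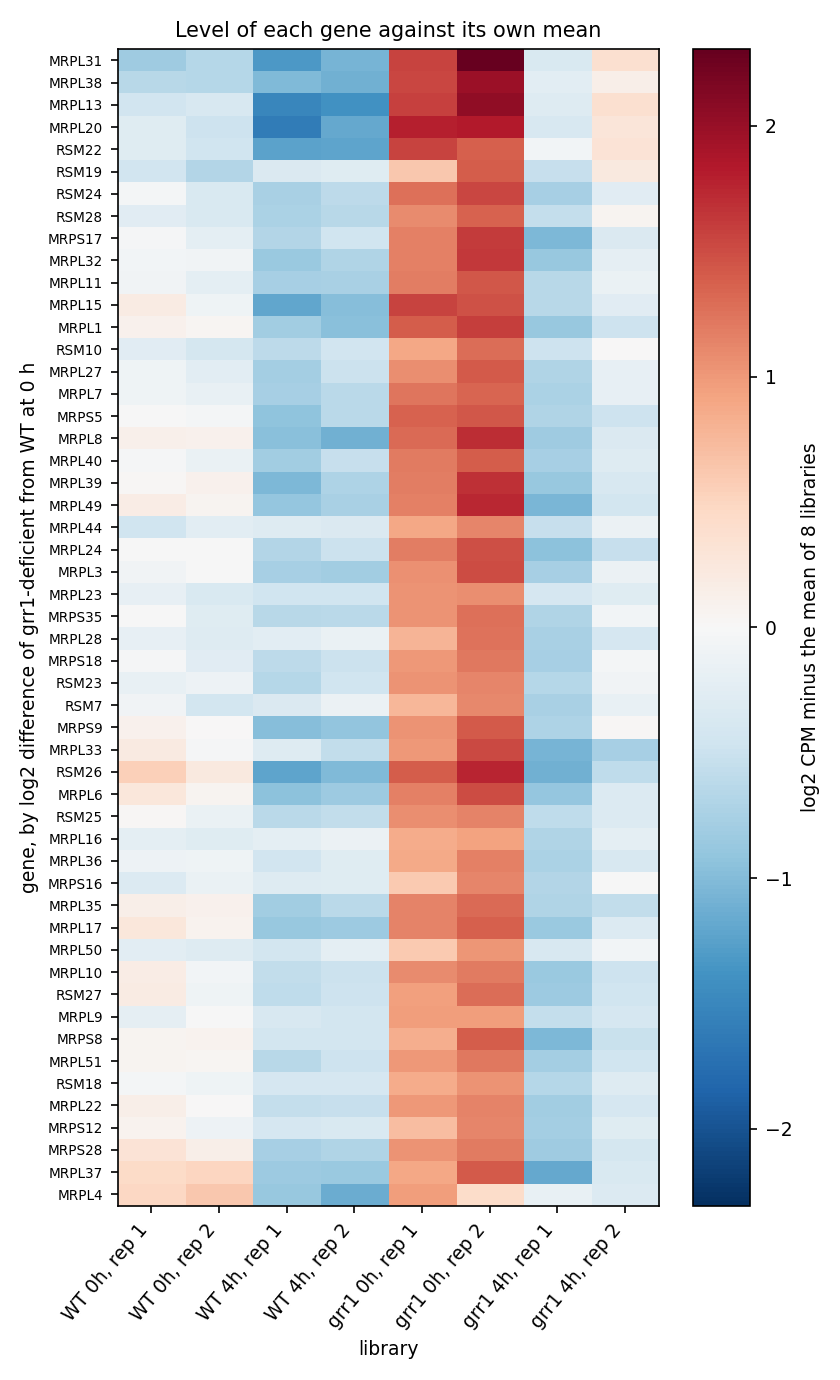
Each row is 1 of the 52 genes and each column 1 library; colour gives log2 CPM minus the gene's mean over the 8 libraries, and genes are ordered by the difference of grr1-deficient from WT at 0 h. The 2 untreated grr1-deficient columns are the highest for nearly every gene, and the treated columns of both strains are mostly below the mean.

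The responses of the strains differed for most genes. The interaction, the change in grr1-deficient cells minus that in WT, was lower by edgeR in 46 of 52 genes and higher in none, where 17.4% of all genes were lower and 19.9% higher. At an unadjusted p of 0.05 the counts were 47 and 0, and DESeq2 called 44 and 0. The median was -1.11 against 0.03 over all genes, and 51 of 52 values were below 0, the exception being MRPL4 at 0.58 (SE 0.39, edgeR adjusted p = 0.284). The cytosolic genes went the other way, with 129 of 130 higher and a median of 3.02. Calls were fewer without WT 0 h replicate 2, without WT 4 h replicate 2 or without WT 4 h replicate 1. The medians were then -1.05, -1.07 and -1.13, against 0.05, 0.04 and 0.03 over all genes.

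MRPL33, MRPL28 and MRPS17 had the largest interactions. MRPL28, which did not pass in WT, measured 61.1 and 84.2 CPM in grr1-deficient cells at 0 h and 21.0 and 27.0 CPM at 4 h. Its interaction was -1.63 (SE 0.26, edgeR adjusted p = 0.00224). MRPS17 (YMR188C, chromosome XIII, 636291 to 637004), the counterpart of bacterial S17, was at 66.0 and 58.2 CPM, then 42.3 and 49.2 CPM in WT, and at 151 and 208 CPM, then 32.8 and 53.7 CPM in grr1-deficient cells. Its interaction was -1.60 (SE 0.35, adjusted p = 0.00881). That of MRPL33 was -1.66 (SE 0.30, adjusted p = 0.00364). For MRPL16 the interaction was -1.40 (SE 0.23, adjusted p = 0.00223): it did not pass in WT and went from 91.7 and 96.7 CPM to 31.7 and 43.8 CPM without Grr1. These calls were kept without any 1 library. The smallest called interactions were MRPS28 (the counterpart of bacterial S15) at -0.75, MRPL17 at -0.79 and MRPL15 at -0.81, both mitochondria-specific, and each lost its call without WT 0 h replicate 2 (edgeR adjusted p = 0.128, 0.161 and 0.119). MRPS28 and MRPL17 also lost it without either WT 4 h library, without WT 0 h replicate 1 and without grr1-deficient 0 h replicate 2, with adjusted p from 0.0583 to 0.123. MRPL15 lost it without either WT 4 h library (0.0514 and 0.112) and without grr1-deficient 0 h replicate 1 (0.0581), and MRPL17 without grr1-deficient 4 h replicate 1 (0.0613). MRPL17 also lost it under DESeq2 (0.0521), with RLE size factors (0.0522) and with TMM factors computed without cytosolic ribosomal protein genes (0.0512). Of the 21 genes with a called interaction that the naming rule picked, 11 lost the call under some alternative. RSM26 and RSM19 lost it when any 1 of 6 libraries was left out, with adjusted p up to 0.172 and 0.14, and with RLE size factors (0.057 and 0.0557).

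**Figure D4:**
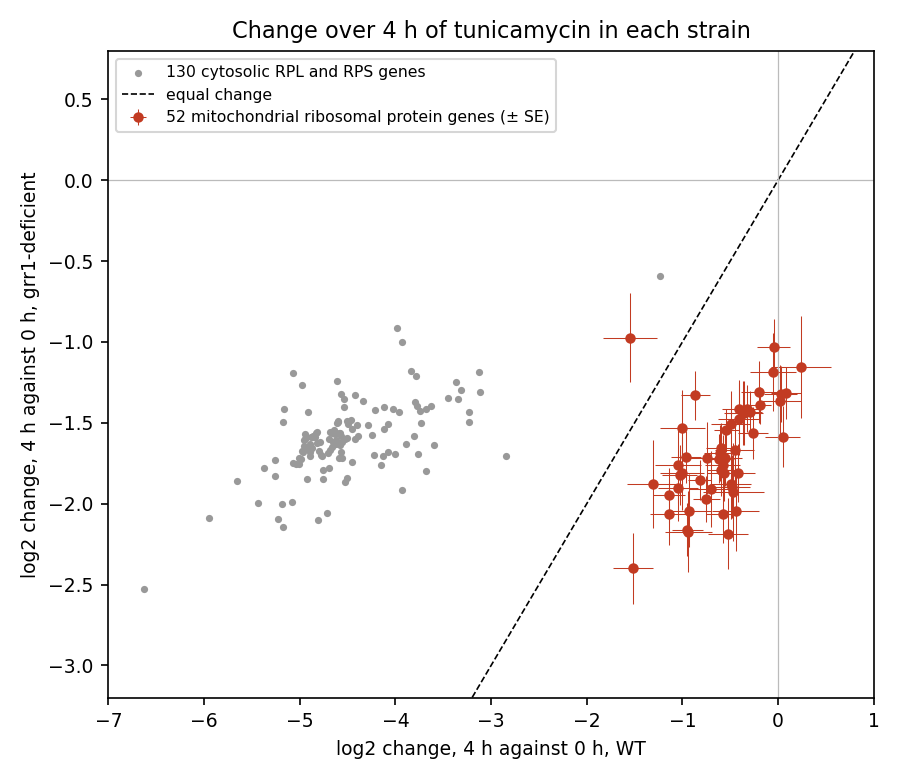
Log2 change at 4 h against 0 h in WT (horizontal) and in grr1-deficient cells (vertical), 1 point per gene, for the 52 mitochondrial (with SE) and 130 cytosolic ribosomal protein genes, with a dashed line of equal change. The mitochondrial genes other than MRPL4 lie below the line, with medians of -0.56 and -1.72 over all 52, and the cytosolic genes above it, with medians of -4.60 and -1.60.

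Across the 52 genes the changes in the strains, which share no library, had a Pearson correlation of 0.533 and a Spearman correlation of 0.593, and across all genes tested 0.697 and 0.71. These describe genes and carry no p, since genes are not independent replicates.

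Without tunicamycin, the grr1-deficient cells held more of these mRNAs than WT. By edgeR 50 of 52 genes were higher and none lower, against 22.5% and 27.2% of all genes. The unadjusted counts were 51 and 0, and DESeq2 called 51 and 0. The median log2 difference was 1.29, with a range of 0.18 to 2.71, against -0.06 over all genes, while 124 of 130 cytosolic genes were lower with a median of -1.24. Both grr1-deficient libraries lay above both WT libraries for 51 genes and below them for 0, where 34.6% and 42.9% of all genes did so. The genes that did not pass were MRPL37 at 0.72 (SE 0.26, adjusted p = 0.0517) and MRPL4 at 0.18 (SE 0.27, adjusted p = 0.594). Without both replicate 2 libraries, which nearly lacked mitochondrial transcripts, 51 genes were called and the median was 1.11.

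The genes of chromosome XI led this comparison. MRPL31 (YKL138C, 185286 to 185681), specific to mitochondria, was at 21.4 and 24.1 CPM in WT and at 112 and 187 CPM in grr1-deficient cells, a log2 difference of 2.71 (SE 0.32, edgeR adjusted p = 0.000584). MRPL38 (YKL170W, 130634 to 131050) was at 61.9 and 61.0 CPM, then 278 and 377 CPM, a difference of 2.41 (SE 0.18, adjusted p = 7.23e-05). MRPL13 (YKR006C, 450423 to 451217), specific to mitochondria, was at 62.7 and 65.5 CPM, then 254 and 351 CPM, a difference of 2.24 (SE 0.24, adjusted p = 0.000312). With MRPL20 at 2.19 and RSM22 at 1.84 all 5 genes there were higher, with a median of 2.24, and of the other 47 genes 45 were higher with a median of 1.22. After subtracting the median of each gene's own chromosome the values were 1.32 for the 5 genes and 1.37 for the 47. The smallest called differences were those of MRPS28 at 0.88 (82.4 and 72.7 CPM, then 135 and 151 CPM), MRPS12 at 0.95 (113 and 98.3 CPM, then 174 and 234 CPM) and MRPL22, the counterpart of bacterial L22, at 1.00 (75.2 and 69.0 CPM, then 138 and 151 CPM). The groups did not overlap for any of these.

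After 4 h of tunicamycin few genes differed between the strains. By edgeR 6 of 52 genes were higher in grr1-deficient cells and none lower, against 17.2% and 14.1% of all genes. The unadjusted counts were 10 and 0, and DESeq2 called 7 and 0. The median difference was 0.19, with a range of -0.48 to 1.52, against -0.00 over all genes, and 128 of 130 cytosolic genes were higher with a median of 1.79. Both grr1-deficient libraries lay above both WT libraries for 12 genes and below them for 4, against 35.8% and 36.4% of all genes. Of the 6 genes called, 5 were those on chromosome XI: MRPL13 at 1.52, MRPL20 at 1.37, RSM22 at 1.37, MRPL31 at 1.25 and MRPL38 at 1.03. With the median of their chromosome subtracted these 5 had a median of 0.49, and the other 47 one of 0.23. The sixth was MRPL15 (YLR312W-A, chromosome XII, 759480 to 760241), at 30.1 and 34.9 CPM in WT and 44.1 and 57.6 CPM in grr1-deficient cells, a difference of 0.65 (SE 0.17, edgeR adjusted p = 0.0219). MRPL15 lost its call without the first treated WT library (adjusted p = 0.155), without the second (0.0815), and without treated grr1-deficient replicate 2 (0.108). MRPL31 lost it without the same libraries (0.138, 0.0995 and 0.0998), both genes lost it with total counts (0.112 for MRPL15 and 0.0704 for MRPL31), and MRPL38 lost it without WT 4 h replicate 2 (0.0528).

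The differences at 4 h depended on the grr1-deficient replicates. Between the grr1-deficient replicates, 51 of 52 genes were higher in replicate 2 at 4 h with a median log2 difference of 0.49, and 49 of 52 at 0 h with a median of 0.28, where the medians over all genes were -0.00 and -0.01. In WT the genes higher in replicate 2 numbered 13 at 0 h and 42 at 4 h, with medians of -0.11 and 0.10. The 4 genes that differed most between the grr1-deficient replicates were MRPL37, MRPL49, RSM19 and MRPL31. RSM19 was at 95.8 and 165 CPM in replicates 1 and 2 at 0 h and at 43.2 and 72.9 CPM at 4 h, and MRPL37 at 81.0 and 116 CPM, then 19.2 and 34.0 CPM. Without both replicate 2 libraries the difference from WT at 4 h had a median of -0.08, against -0.008 over all genes. Without grr1-deficient 4 h replicate 1 that median was 0.41, against -0.02 over all genes. VAR1, the ribosomal protein gene in mitochondrial DNA, held 850 and 931 reads in replicate 1 and 0 reads in both replicate 2 libraries, which allows up to 3 reads in each. The part of the missing mitochondrial transcripts in the higher levels of replicate 2 was not tested.

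**Figure D5:**
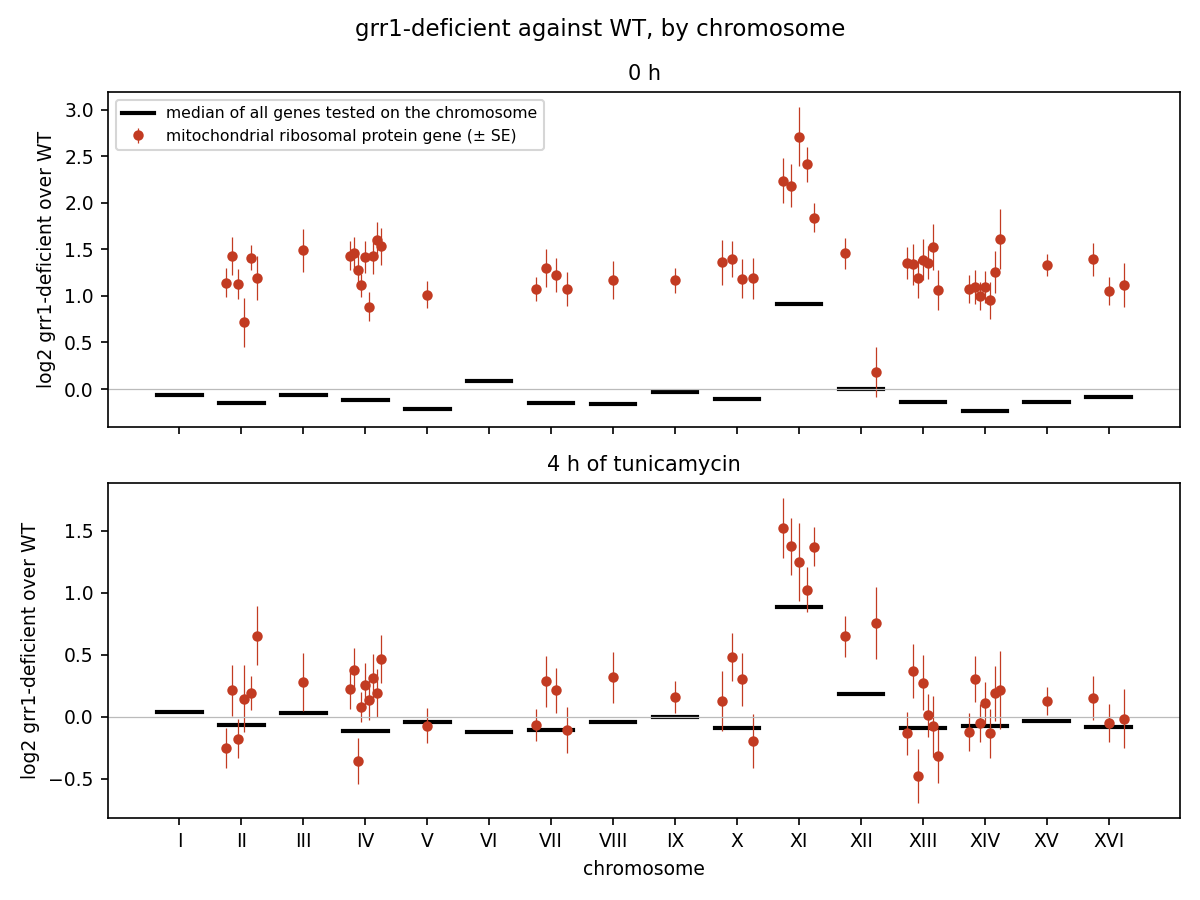
Log2 difference of grr1-deficient from WT at 0 h and at 4 h by chromosome, with the median of all genes tested on each nuclear chromosome as bars and the 52 mitochondrial ribosomal protein genes as points with SE. Chromosome XI has medians of 0.91 and 0.89, and its 5 points lie between 1.84 and 2.71 at 0 h and between 1.03 and 1.52 at 4 h.

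The other parts of the mitochondrial translation apparatus were described in the same fit, from lists of names. The 23 mitochondrial ribosomal protein genes with other names followed the 52: 13 fell in WT with a list median of -0.50, all 23 fell in grr1-deficient cells with -1.62, 20 had a lower interaction, and all 23 were higher without Grr1 at 0 h with 1.28. MNP1, the counterpart of bacterial L7/L12, fell from 137 and 129 CPM to 47.4 and 49.6 CPM in WT and from 267 and 293 CPM to 45.2 and 66.1 CPM in grr1-deficient cells. MRP49, on chromosome XI, had the highest difference at 0 h, 2.34. At 4 h 3 of the 23 (13.0%) were higher, against 17.2% of all genes, with a list median of 0.20. They were MRP17 at 1.32, MRP49 at 0.83 and YML6 at 0.50. MRP17 and MRP49 lie on chromosome XI, whose genes had a median of 0.89. Of all genes 33.1% fell in WT, 24.5% fell in grr1-deficient cells, 17.4% had a lower interaction and 22.5% were higher at 0 h.

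Of 9 translation factors, 2 fell and 1 rose in WT, 7 fell in grr1-deficient cells and 7 were higher without Grr1 at 0 h, with list medians of -0.24, -1.21 and 1.53. Of all genes tested, 33.1% fell and 32.5% rose in WT, and 24.5% fell and 21.5% rose in grr1-deficient cells. At 0 h between the strains 22.5% were higher and 27.2% lower. In WT the factors (22.2% lower, 11.1% higher) and the DNA upkeep genes named below (28.6% and 14.3%) did not exceed these shares. TUF1, the mitochondrial elongation factor Tu, fell by 1.42 in WT (SE 0.25, edgeR adjusted p = 0.00123) and by 2.09 in grr1-deficient cells (SE 0.26, adjusted p = 0.000431). MEF1, an elongation factor G, was higher without Grr1 at both times, by 1.98 and 1.31. AIM23, an initiation factor 3, was the one that rose in WT, by 0.60, and it fell by 0.95 in grr1-deficient cells. Of 11 assembly, rRNA modification and membrane attachment genes, 6 fell and 2 rose in WT, 8 fell in grr1-deficient cells, and 8 were higher without Grr1 at 0 h. Among them MRM1, an rRNA methyltransferase, fell most in WT, by 1.72, and MTG1, a GTPase of large-subunit assembly, rose by 1.04. Of 15 translational activators of single mitochondrial mRNAs, 2 were lower and 3 higher in WT, where 33.1% and 32.5% of all genes were, 9 lower in grr1-deficient cells and 10 higher and 1 lower without Grr1 at 0 h. Of 7 genes for mitochondrial DNA upkeep and transcription, 2 fell and 1 rose in WT, 4 fell in grr1-deficient cells, and 5 were higher at 0 h without Grr1, led by the mitochondrial RNA polymerase gene RPO41 at 1.46. At 4 h between the strains, where 17.2% of all genes were higher and 14.1% lower, 2 factors were higher, 2 assembly genes higher and 1 lower, 2 activators higher and 1 lower, and 1 upkeep gene higher and 1 lower.

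Among 11 genes for regulators, HAP4, the activating subunit of the Hap complex of respiratory genes, differed most between the strains at both times and in the interaction. HAP4 (YKL109W, chromosome XI, 232227 to 233891) was at 57.5 and 48.7 CPM in WT at 0 h and at 88.6 and 86.4 CPM at 4 h, and at 503 and 346 CPM, then 263 and 210 CPM in grr1-deficient cells. It rose by 0.72 in WT (SE 0.20, edgeR adjusted p = 0.0115), fell by 0.84 in grr1-deficient cells (SE 0.20, adjusted p = 0.00822) and was 3.0 log2 higher without Grr1 at 0 h (SE 0.21, adjusted p = 5.09e-05). At 4 h it was 1.435 higher (SE 0.20, edgeR adjusted p = 0.00145). HAP4 lies on the chromosome whose genes had medians of 0.91 at 0 h and 0.89 at 4 h. PUF3, next at 4 h with 1.304, lies on chromosome XII, whose median there was 0.185. The rank of HAP4 between the strains does not allow for these medians. Of the other HAP genes, HAP1 rose by 0.98 in grr1-deficient cells (SE 0.17, edgeR adjusted p = 0.00227), with an interaction of 1.19 (0.00649). It did not pass at 0 h between the strains (-0.45, 0.0612). HAP3 and HAP5 fell in grr1-deficient cells, at -0.77 (0.0175) and -0.79 (0.00955). Both were higher without Grr1 at 0 h, by 0.71 (0.0242) and 0.75 (0.012). HAP2 passed in none of the 5 comparisons. PUF3 (YLL013C, chromosome XII, 122075 to 124714) was at 53.7 and 70.5 CPM in WT at 0 h, 53.2 and 45.0 CPM in WT at 4 h, 172 and 113 CPM in grr1-deficient cells at 0 h and 97.0 and 145 CPM at 4 h. It was higher without Grr1 by 1.20 at 0 h (SE 0.27, edgeR adjusted p = 0.00776) and by 1.30 at 4 h (SE 0.27, adjusted p = 0.0108), and its changes over time did not pass (0.297 in WT and 0.488 in grr1-deficient cells). Among the regulators of cytosolic ribosomal protein genes, SFP1 passed in none of the 5 comparisons. RAP1 fell by 1.22 in WT (SE 0.14, edgeR adjusted p = 8.7e-05), by 0.46 in grr1-deficient cells (adjusted p = 0.0275) and was lower without Grr1 at 0 h, with a log2 difference of -0.51 (0.016), and its interaction was 0.76 (0.0172). FHL1 fell by 0.60 in WT (adjusted p = 0.0061) and by 0.45 in grr1-deficient cells (0.0365), and IFH1 passed in the interaction alone, at 0.63 (0.045). FHL1, IFH1, HAP1, HAP2, HAP3 and HAP5 were named after their values were seen. None of the 11 regulator genes carried TGTANATA after its stop codon.

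The motif marks a wider set of genes. The 752 genes that carry TGTANATA and belong to neither mitochondrial ribosome list had a median of 0.23 at 0 h between the strains. Of them 296 (39.4%) were higher and 138 (18.4%) lower, against 22.5% and 27.2% of all genes. Over time in grr1-deficient cells their median was -0.44, with 79 (10.5%) higher and 340 (45.2%) lower, against 21.5% and 24.5%. They still include 7 of the 9 translation factors and 11 of the 15 activators, so motif and mitochondrial function were not told apart. The 4821 genes without the motif had medians of -0.13 and 0.09. Of these, 19.0% were higher and 30.1% lower at 0 h, and 23.8% and 21.1% over time. In WT over time the medians were -0.12 and 0.06, and at 4 h between the strains -0.02 and -0.01. Within the 52, the 40 genes with 1 match had a median of 1.21 at 0 h between the strains and the 11 with more matches 1.35, and over time in grr1-deficient cells the medians were -1.71 and -1.89. RSM22, without a match, was at 1.84 and -1.33 in these comparisons, on chromosome XI. These motif groups were formed after the results were known and carry no test.

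The authors' deposited tables of fold changes hold all 52 genes for both time comparisons. They list 41 genes lower in WT with a median log2 change of -0.57 and 51 lower in grr1-deficient cells with a median of -1.72, at an adjusted p of 0.05. The sign was that of the fit made here for 52 of 52 genes in both, and no log2 change differed by more than 0.018. The fit made here, with its spread taken from all 8 libraries, called 28 lower in WT and 52 in grr1-deficient cells.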

How the data were processed

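The deposited files hold, per the file headers, raw counts of reads per gene made with an offset of 25 nt from the 5′ end for reads of 25 to 100 nt. Tools listed without roles in the submitters' processing notes are STAR 2.7.3a, Bowtie2 2.3.5, cutadapt 2.6 and DESeq2, with build R64. RPKM values deposited by the authors in the same files were not used here. The authors' deposited tables hold log2 fold changes, standard errors and p-values, raw and adjusted, for 4 h against 0 h in each strain. Mean signal and test score columns deposited by the authors in those tables were not used. How strand was handled was not given in the sources used here, and MRPL51 overlaps an antisense reading frame by 323 bases.

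Exon counts entered a single edgeR 4.0.16 fit (R 4.3.3) of all 8 libraries with a coefficient per group, TMM scaling, the default filter (5855 genes kept), robust quasi-likelihood tests, two-sided, Benjamini-Hochberg adjustment over all genes. The fit was tested on simulated data. CPM are TMM scaled, and SE is the log2 change divided by the root of F. No pair of replicates agreed within sampling noise. The median SD of the 52 genes between replicates, in log2, was 0.10 in WT at 0 h and 0.08 at 4 h. In grr1-deficient cells it was 0.21 at 0 h and 0.35 at 4 h. Coordinates and sequences come from RefSeq R64. Genes named in the text are, per comparison, the 3 highest and 3 lowest called changes, and the highest and lowest levels. Also named are those against the common direction, those that differed most between the grr1-deficient replicates, and those whose sites are printed. Of the lists the extremes are named. GRR1, VAR1, PUF3, HAP4 and SFP1 were picked by name, and FHL1, IFH1 and the other HAP genes were added after their values were seen. MRPL19, MRPL25 and MRPL51 are named for limits of counting. The members and the lists were chosen with earlier results of these data known. Alternatives were other scalings, no filter, coding reads, DESeq2 1.42.0, fewer libraries and replicate blocks. Read depth informs on counting error alone and not on the spread between cultures. Reads carry no molecular identifiers, so duplicate reads could not be told from separate molecules.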

Additional observations from a re-analysis of the deposited data

Results flagged for a closer look

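The responses of WT and grr1-deficient cells differed by the edgeR interaction test in 46 of the 52 genes and in 129 of the 130 cytosolic ribosomal protein genes. In those 46 the change over time was more negative in grr1-deficient cells than in WT, and in those 129 it was less negative. These are differences of change and not of level. Among the genes picked by the naming rule, the log2 interaction that passed the test was -0.88 for RSM26, -1.01 for RSM25, -1.16 for MRPL7, -1.24 for MRPL40, -1.66 for MRPL33 and -1.24 for MRPL49. It was -0.98 for MRPL50, -1.40 for RSM19, -1.63 for MRPL28, -1.60 for MRPS17, -0.75 for MRPS28, -0.79 for MRPL17 and -0.81 for MRPL15. It was -1.09 for MRPS12, -1.05 for MRPL22, -1.46 for MRPL31, -1.39 for MRPL38, -1.35 for MRPL44, -1.40 for MRPL16, -0.92 for MRPL8 and -0.85 for MRPL6. Of these 21 calls, 10 were kept under every alternative run, those of RSM25, MRPL7, MRPL40, MRPL33, MRPL28, MRPS17, MRPL22, MRPL38, MRPL44 and MRPL16. The other 11 lost the call under at least 1 alternative, RSM26, RSM19, MRPL17 and MRPL6 also under other scalings. The regulator gene HAP4 had an interaction of -1.56.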

How the results depend on the processing

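With total counts the calls in WT were 9 higher and 2 lower, the median was 0.186 and 29 of 52 genes changed sign, as the median of all genes moved from 0.03 to 0.78. Of those called lower and named by the rule, RSM25 (0.206), MRPL7 (0.193), MRPL40 (0.179) and MRPL22 (0.147) did so. MRPL50 was not called with TMM scaling (-0.046, edgeR adjusted p = 0.828) and passed as higher with total counts (0.699, adjusted p = 0.0164). Between the strains at 4 h the median was -0.095 with 1 gene lower, and 20 genes changed sign. Total counts also turned the calls over all genes from 1905 higher and 1936 lower to 3340 and 957 in WT, from 1166 and 1016 to 451 and 2486 in the interaction, from 1316 and 1595 to 2106 and 646 between the strains at 0 h, and from 1008 and 828 to 562 and 1620 at 4 h. With only the 4 libraries compared, 43 genes fell and 1 rose in WT, and 50 fell in grr1-deficient cells. Interaction calls of named genes lost without 1 library were those of RSM26, MRPL49, MRPL50, RSM19, MRPS28, MRPL17, MRPL15, MRPS12, MRPL31, MRPL8 and MRPL6 (edgeR adjusted p 0.0512 to 0.172). RSM26, RSM19, MRPL17 and MRPL6 also lost them with RLE factors and with TMM factors computed without cytosolic genes, MRPL17 and MRPL6 under DESeq2, and RSM26 with coding reads (0.0509 to 0.0598 in all). Without both grr1-deficient replicate 2 libraries, each of those groups had 1 library, assumed to vary like the others: 45 genes fell in WT, and at 4 h between the strains 11 were lower and the median was -0.080. Without chromosome XI genes, a choice made after seeing the data, 1 gene was higher at 4 h. Leaving out 1 library gave 17 to 40 genes lower in WT, 51 to 52 in grr1-deficient cells, 24 to 51 in the interaction, 50 to 51 higher at 0 h, and 3 to 17 higher and 0 to 1 lower at 4 h, where the median was -0.081 without grr1-deficient 4 h replicate 2 and 0.406 without replicate 1. The cause of these shifts was not tested, except that fewer samples or genes entered by construction.

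The labels do not say that replicate numbers pair cultures. In the grr1-deficient strain same-numbered libraries of 0 h and 4 h deviated together, with a correlation of 0.796, and both replicate 2 libraries nearly lacked mitochondrial transcripts. That correlation covers all genes tested, genes of the mitochondrial genome among them, so it is not separate from their lack. The correlation was 4.47e-05 in WT, and between the strains 0.00163 at 0 h and 0.0146 at 4 h. With a replicate block the calls were 35 lower in WT, 52 in grr1-deficient cells, 47 in the interaction, 51 higher at 0 h and 7 at 4 h, and with the block within strain 41, 52 and 50. Depth limits MRPL4 most, with 30 to 88 reads.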
